A study of Rattus norvegicus with 10 samples.

Results

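YAP, the effector of the Hippo pathway, has target genes that recur across tissues and tumours, and 10 of these classical targets were followed here: Myof, Asap1, Axl, F3, Crim1, Fjx1, Dock5, Nuak2, Arhgef17 and Rbms3. They were picked by name with earlier results of these data known, so the counts below describe them and are no independent support. Each had a single entry in the gene tables, and they are 10 of 39784 gene names there. All 10 passed the filter on low values (a mean over the libraries of at least 1 TPM, a transcript level scaled for length and depth), and are among the 13420 genes tested. They come from a published score of 22 genes used to read YAP and TAZ activity in tumours, and the remaining 12 genes of that score are given further on for comparison.

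YAP does not bind DNA itself. It docks onto TEAD transcription factors, which recognise short sites in promoters and, more often, in distant enhancers, and Hippo kinases keep it out of the nucleus by phosphorylating serines. In the heart the pathway is known for limiting the growth of cardiomyocytes after birth. Many of the genes in question were first described as targets in epithelial, cancer or fibroblast cells, and their products act at the cell surface, on small GTPases of the cytoskeleton, in signalling and on RNA.

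RNA was measured in wild-type neonatal rat cardiomyocytes, the beating muscle cells of the newborn heart, grown in culture with serum. One group carried an adenovirus labelled Ad-Xon-YAP5SA, which encodes an activated YAP whose inhibitory serines are alanines, and the other Ad-Xon-YAP5SA-S94A, the same protein with the change S94A, which impairs TEAD binding. Each group had 2 libraries, called biological replicates in the labels without a statement on separate cultures, so p-values may measure technical spread only. No library of cells without a YAP construct was used, which means that every difference here lies between both YAP forms and not against an untreated state. Neither the time after infection nor the species of the construct is given. YAP binding, profiled by CUT&RUN in 6 further samples, was not analysed here.

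The libraries corresponded to between 4.02 and 5.10 gigabases of aligned sequence. All 12 cardiomyocyte markers checked were present, with a summed level of 26040 and 26810 TPM in YAP5SA and 32830 and 33010 TPM in YAP5SA-S94A. Of these, 8 were called lower in YAP5SA, and Actc1 was called higher (log2 fold change 0.60). The largest falls were those of Myh6 (−1.73) and Tnni3 (−1.55). Mybpc3 (−1.21), Pln (−1.16) and Myl7 (−1.1) followed, and Ttn (−0.779), Ryr2 (−0.601) and Tnnt2 (−0.42) fell less. Nkx2-5 (−0.625), Myl2 (−0.28) and Myh7 (−0.19) were not called. Transcripts of other heart cells were present too. The 10 fibroblast markers summed to 8645 and 6886 TPM against 7351 and 6995 TPM, with overlapping groups (1 called higher, 2 lower), and the 8 smooth muscle and pericyte markers to 416 and 346 TPM against 302 and 309 TPM, with Cnn1 called higher. For the 6 epicardial markers the sums were 94.3 and 80.8 TPM against 30.6 and 31.3 TPM, with 4 called higher. Most of that difference lay in Krt19 (41.5 and 33.0 TPM against 7.54 and 7.15 TPM) and Upk3b (22.4 and 18.2 TPM against 0.611 and 0.544 TPM). Upk3b, counted among the 4, passed the filter on low values only through its YAP5SA libraries. Wt1 (2.63 and 2.27 TPM against 3.1 and 2.83 TPM) and Tbx18 (7.71 and 7.41 TPM against 8.59 and 11.2 TPM) were not called. The 8 endothelial markers summed to 21.2 and 23.3 TPM against 32.7 and 31.4 TPM, with Cldn5 listed at 0 throughout. That difference in the sum came from Kdr (3.97 and 3.33 TPM against 21.3 and 19.9 TPM), whereas Tek was called higher (10.2 and 13.0 TPM against 3.57 and 3.79 TPM). The sums were higher in YAP5SA-S94A also for the 8 macrophage and leukocyte markers, at 566 and 543 TPM against 848 and 844 TPM. Lyz2 made up most of them (438 and 428 TPM against 714 and 710 TPM), 3 markers were called lower, and Csf1r was called higher (38.2 and 37.5 TPM against 14.6 and 12.9 TPM). The part of these cells in the results was not tested, and in bulk RNA fewer cells of a type and less RNA per cell cannot be told apart. The Yap1 entry, at 105 and 99.1 TPM in YAP5SA and 117 and 121 TPM in YAP5SA-S94A, does not check the labels, since how much of the construct it captures is unknown.

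Of the 10 targets, 6 were called higher in YAP5SA and 0 lower (limma, adjusted p under 0.05), whereas 17.4% of all tested genes were called higher and 15.5% lower. F3 and Nuak2 differed most, Crim1 by 2.27-fold, and Arhgef17, Myof and Axl by less. No call was made for Fjx1, Dock5, Rbms3 and Asap1. For none of these was the unadjusted limma p under 0.05. The median difference of the 10 targets was 0.60 on the log2(TPM + 1) scale, the scale of every difference below, against 0.00015 over all tested genes. In 9 of the 10 both YAP5SA libraries lay above both YAP5SA-S94A libraries, which held for 34.5% of tested genes, and Asap1 lay the other way. Summed over the 10 genes, the level was 430 and 385 TPM in YAP5SA and 235 and 238 TPM in YAP5SA-S94A. Log values of low genes understate the change, and 2 libraries against 2 allow a smallest two-sided p of 0.333 in an exact permutation test. The calls therefore depend on limma's estimate of spread, which borrows from all genes. Where a library is left out below, its group has a single library. Such calls rest on the spread of the other group and on that estimate.

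**Figure D1:**
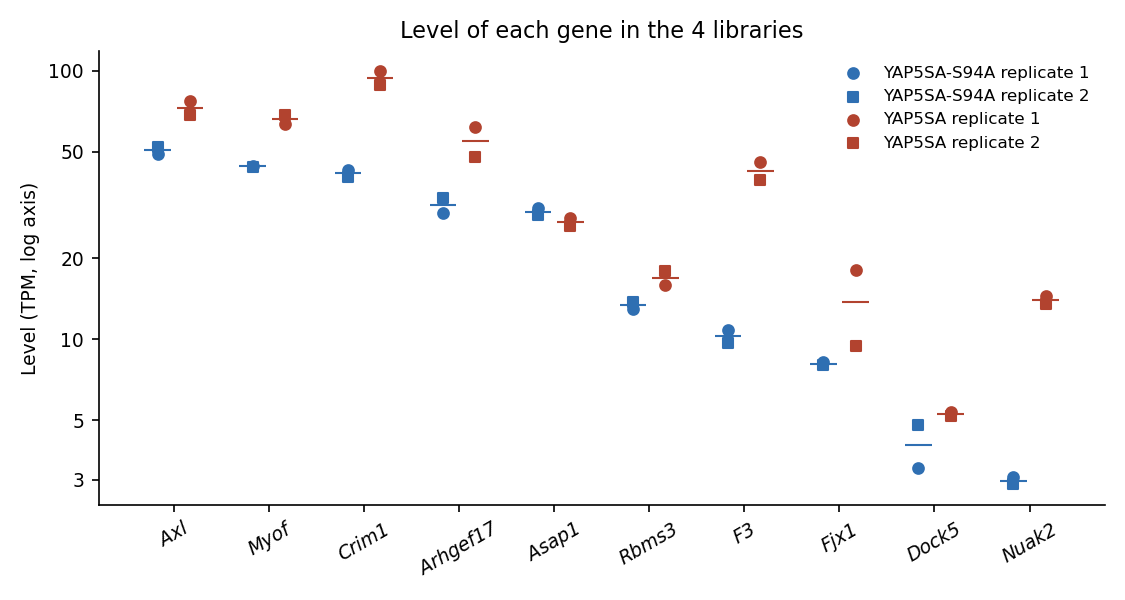
Level of the 10 targets in TPM (log axis) in each of the 4 libraries, with a short line at the mean of each form and genes ordered by their mean in YAP5SA-S94A. F3 and Nuak2 show the widest gaps, the Fjx1 libraries of YAP5SA lie at 18.1 and 9.40 TPM, and Asap1 is the one gene with both YAP5SA libraries below the others.

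In YAP5SA-S94A the order of the levels, which TPM scales for transcript length, ran from Axl (50.6 TPM) through Myof, Crim1, Arhgef17, Asap1, Rbms3, F3, Fjx1 and Dock5 to Nuak2 (2.97 TPM). Only Arhgef17 and Asap1 overlapped as neighbours in that order. In YAP5SA Crim1 came first (94.1 TPM) and Dock5 last (5.26 TPM), F3 had moved up to the place after Arhgef17 and Nuak2 to the place before Fjx1, and the neighbours Axl and Myof, and Nuak2 and Fjx1, overlapped.

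Among the genes that act at the cell surface, F3 differed most. F3 encodes tissue factor, the membrane receptor of factor VII that starts blood coagulation (chromosome 2, 209827061 to 209838666, plus strand, rn7). It stood at 45.9 and 39.2 TPM in YAP5SA and at 10.8 and 9.71 TPM in YAP5SA-S94A. The groups lay well apart, with the lower YAP5SA library 3.63-fold above the higher library of the other form. F3 rose by 1.95 on the log2 scale (SE 0.14, 95% interval 1.61 to 2.28, limma adjusted p = 1.06e-04), which placed F3 at rank 278 of 13420 by increase.

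Other genes of coagulation at the cell surface were read from a fixed list. Of 7 tested besides F3, 4 were called higher and 0 lower, where 17.4% and 15.5% of all tested genes were. F2r, which encodes the thrombin receptor PAR1, stood at 97.0 and 97.4 TPM against 26.8 and 26.6 TPM (log2 fold change 1.83), and F2rl1, the gene of PAR2, at 7.03 and 5.46 TPM against 0 and 0.203 TPM. F2rl1, counted among the 4, passed the filter on low values only through its YAP5SA libraries, so it could be tested only because it was high there. Tfpi, the inhibitor of tissue factor, rose by 0.55 and the protein C receptor gene Procr by 0.79, the latter a call lost without either YAP5SA-S94A library. F2rl2 showed a difference of 0.009 (limma adjusted p = 0.976), whose sign changed with the scaling. The plasma factor genes F7, F10 and F2 were listed at 0 in all 4 libraries.

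Crim1, a transmembrane protein with cysteine-rich repeats that binds bone morphogenetic proteins (chromosome 6, 16695864 to 16870264, minus strand), was the most abundant of the 10 in YAP5SA. Its level was 99.5 and 88.6 TPM there and 42.7 and 40.2 TPM in YAP5SA-S94A, without overlap and 2.27-fold apart in the mean. Crim1 rose by 1.16 on the log2 scale (SE 0.11, 95% interval 0.90 to 1.42, limma adjusted p = 3.69e-04). Of 5 tested BMP ligands and binders besides Crim1, 2 were called higher and 0 lower (17.4% and 15.5% over all tested genes). These were Bmp4 (log2 fold change 1.38) and Bmp2 (0.86, a call lost without YAP5SA-S94A replicate 2). Bmp7, the most abundant one not called, stood at 23.2 and 19.9 TPM against 25.3 and 21.5 TPM.

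Axl, a receptor tyrosine kinase that senses phosphatidylserine on dying cells through the bridging protein Gas6 (chromosome 1, 81265088 to 81296278, minus strand), changed least among the genes called. Its level was 77.2 and 68.2 TPM against 48.9 and 52.3 TPM. All YAP5SA values lay above the others, by 1.31-fold at the closest. The log2 fold change was 0.51 (SE 0.11, 95% interval 0.25 to 0.78, limma adjusted p = 0.0128), and without YAP5SA-S94A replicate 1 the call was lost (limma adjusted p = 0.112). Among the sister receptors and ligands, 0 of 4 were called higher and 1 lower (17.4% and 15.5% over all tested genes). Pros1, listed as a ligand gene of the receptor family as a whole, fell from 71.1 and 72.1 TPM to 44.9 in each YAP5SA library. Gas6 stood at 585 and 475 TPM against 469 and 422 TPM (limma adjusted p = 0.169). Gas6 was called higher without YAP5SA replicate 2 (log2 fold change 0.39). The other receptors of the family were lower in abundance, with Tyro3 between 11.4 and 14.1 TPM and Mertk between 2.24 and 3.42 TPM.

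Myof encodes myoferlin, a membrane-anchored protein with calcium-binding C2 domains that acts in membrane fusion and repair (chromosome 1, 235673666 to 235822413, minus strand). It stood at 63.4 and 68.7 TPM against 44.3 and 43.9 TPM. The YAP5SA-S94A libraries were nearly equal and both lay below YAP5SA. Myof rose by 0.57 on the log2 scale (SE 0.11, 95% interval 0.32 to 0.82, limma adjusted p = 0.00645), and it stayed between 0.50 and 0.63 under the 14 alternatives tried. Its relative Dysf, the dysferlin of muscle repair, stood at 32.0 and 26.8 TPM against 34.1 and 36.2 TPM and was not called (log2 fold change −0.25, limma adjusted p = 0.184), though it was called lower without YAP5SA replicate 1 (log2 fold change −0.38). The other 4 ferlin genes did not pass the filter.

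Fjx1, the mammalian four-jointed gene, encodes a secreted or Golgi protein whose fly counterpart phosphorylates Fat and Dachsous cadherins (chromosome 3, 88774220 to 88776321, minus strand). It stood at 18.1 and 9.40 TPM in YAP5SA and at 8.25 and 7.99 TPM in YAP5SA-S94A. The YAP5SA libraries differed 1.93-fold from each other, the widest spread of any of the 10 within a form, and the lower one was close to the other group. The log2 fold change was 0.63 (SE 0.28, 95% interval −0.025 to 1.28, limma adjusted p = 0.126), an interval that holds both no difference and a rise larger than that of Crim1. The call depended on the libraries included: without YAP5SA replicate 2 Fjx1 was called higher (log2 fold change 1.07, limma adjusted p = 0.00678), and without YAP5SA replicate 1 the difference was 0.19. Among the tested Fat and Dachsous cadherin genes, Fat1 rose by 0.76, to 58.6 and 57.5 TPM from 33.9 and 33.7 TPM. Dchs1, between 4.32 and 4.74 TPM, and Fat4, between 2.15 and 2.75 TPM, were not called. Whether Fjx1 acts on any of them was not tested.

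Nuak2, the signalling kinase of the set, had the largest ratio. It belongs to the AMPK-related kinases that LKB1 activates, and it acts on myosin phosphatase and actin filaments (chromosome 13, 43753454 to 43770604, plus strand). Its level was 14.5 and 13.5 TPM in YAP5SA and 3.06 and 2.87 TPM in YAP5SA-S94A. The forms were 4.72-fold apart in the mean and at least 4.41-fold in any pair of libraries, while replicates differed by no more than 1.08-fold. Nuak2 rose by 1.92 on the log2 scale (SE 0.17, 95% interval 1.52 to 2.32, limma adjusted p = 2.61e-04). Coverage of Nuak2 in YAP5SA-S94A was 5.37 and 4.82 reads per base, the lowest among the called genes.

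Promoter windows from RefSeq (build GRCr8, a later build than the rn7 of the gene tables) were on hand for 5 of the 10 genes: Myof, Axl, Crim1, Fjx1 and Nuak2. Each runs 300 bases around a transcript start and ends 50 bases past it. The TEAD core GGAATG was searched on both strands. It occurred in the Nuak2 window alone, as 1 match on the reverse strand (CATTCC) that begins 228 bases before that start. The core is in 14.2% of the windows of all genes and in 11.6% of those of tested genes, and a match is a description and not a binding site. The 2 windows below are those of the genes that were called with the largest changes among the 5, and they are shown so that one with the core, in capitals, can be read beside one without it. Nuak2 lies at chr13:46305756-46306055 (plus strand) and Crim1 at chr6:22622367-22622666 (minus strand), both written 5′ to 3′ on the gene's strand.
Nuak2: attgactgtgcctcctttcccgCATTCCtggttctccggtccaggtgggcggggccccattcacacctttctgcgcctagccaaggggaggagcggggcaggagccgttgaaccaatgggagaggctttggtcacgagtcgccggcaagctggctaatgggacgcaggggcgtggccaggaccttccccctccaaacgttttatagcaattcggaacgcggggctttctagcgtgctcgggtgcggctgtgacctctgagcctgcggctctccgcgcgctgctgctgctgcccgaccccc
Crim1: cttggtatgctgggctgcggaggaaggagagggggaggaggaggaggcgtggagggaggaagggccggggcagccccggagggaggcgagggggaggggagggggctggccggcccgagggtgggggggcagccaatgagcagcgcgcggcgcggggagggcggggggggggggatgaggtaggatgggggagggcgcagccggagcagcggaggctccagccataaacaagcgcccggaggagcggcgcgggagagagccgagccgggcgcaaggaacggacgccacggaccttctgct

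The annotated gene start of Nuak2 lies 262 bases before the transcript start of this window, so the match falls within the annotated span of the gene. All 5 windows were GC-rich, from 61.0% in Myof to 75.0% in Crim1, against a median of 60.3% over tested genes. They held 11 (Axl) to 28 (Fjx1) CpG pairs, where the median was 20. No window of the 5 held the AP-1 sequence TGANTCA, found in 5.0% of the windows of tested genes. Among the other genes of the score, the core was in the windows of Ccn2 (3 matches), Ccn1, Amotl2 and Ptpn14, and in none of the windows of Igfbp3, Gadd45a, Nt5e, Ccdc80, Tgfb2 and Foxf2. No window was on hand for Lats2 and Ankrd1. Enhancers were not examined.

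Of 19 tested genes listed with Nuak2 (AMPK-related kinases, LKB1 and its partners, and the kinases' target Ppp1r12a), 3 were called higher and 3 lower, shares close to the 17.4% and 15.5% over all tested genes. The closest relative, Nuak1, rose by 0.70 from a higher level (94.3 and 81.8 TPM against 52.8 and 54.4 TPM). Melk, a kinase gene associated with dividing cells, rose by 1.04, and the salt-inducible kinase gene Sik1 by 0.55, a call lost in 7 of the 14 alternatives. The LKB1 gene Stk11 fell by 0.68, its partner gene Cab39l by 0.94 and the AMPK catalytic subunit gene Prkaa2 by 0.70. Ppp1r12a, the myosin phosphatase subunit that NUAK kinases act on, stood at 99.0 and 112 TPM against 130 and 134 TPM (limma adjusted p = 0.0503), and it was called lower in 5 alternatives.

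Regulators of small GTPases of the cytoskeleton were split. Arhgef17, an exchange factor that activates RhoA (chromosome 1, 155230607 to 155290163, minus strand), stood at 61.5 and 47.9 TPM against 29.6 and 33.5 TPM. The groups did not overlap, with 1.43-fold between the closest libraries. Arhgef17 rose by 0.77 on the log2 scale (SE 0.15, 95% interval 0.41 to 1.12, limma adjusted p = 0.0079). Of 15 other tested genes for RhoA exchange factors and RhoA itself, 4 were called higher and 3 lower, where 17.4% and 15.5% of all tested genes were. Ect2, the exchange factor of cytokinesis, rose by 2.08, Arhgef18 by 1.18, Arhgef10 by 0.81 and Arhgef3 by 0.54. Arhgef12 fell by 1.11, Net1 by 0.78 and Arhgef28 by 0.72. The calls of Arhgef3 and Arhgef28 were lost without either YAP5SA-S94A library, and that of Arhgef28 also without YAP5SA replicate 2. The Rhoa transcript stood at 522 and 625 TPM against 527 and 502 TPM and was not called, except without YAP5SA replicate 1 (log2 fold change 0.28).

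Asap1 encodes a GTPase-activating protein for Arf proteins at focal adhesions and podosomes (chromosome 7, 95786130 to 96093111, minus strand). It stood at 28.4 and 26.4 TPM in YAP5SA and at 30.7 and 28.9 TPM in YAP5SA-S94A. The YAP5SA values were the lower ones by a narrow margin, with the nearest libraries at 28.4 and 28.9 TPM. The log2 fold change was −0.12 (SE 0.12, limma adjusted p = 0.493), and its 95% interval of −0.40 to 0.17 leaves out a rise of the size measured for Axl or Myof. Across the 14 alternatives it ran from −0.19 to −0.07 and was never called. Its relatives moved in opposite directions: Asap2 fell from 51.1 and 47.5 TPM to 29.3 and 28.2 TPM (log2 fold change −0.76), and Asap3 rose from 4.28 and 4.71 TPM to 11.1 and 9.42 TPM (1.03).

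Dock5, an exchange factor for Rac (chromosome 15, 41979728 to 42158733, minus strand), was the least abundant in YAP5SA. It stood at 5.34 and 5.18 TPM against 3.31 and 4.80 TPM. Both YAP5SA libraries were above the others, but the YAP5SA-S94A libraries differed 1.45-fold from each other. The log2 fold change was 0.33 (SE 0.22, 95% interval −0.19 to 0.84, limma adjusted p = 0.291), so a moderate rise was not detectable at this spread. Of 8 tested relatives and partners, 1 was called higher and 0 lower, where 17.4% and 15.5% of all tested genes were. The gene called was Dock4, a further Rac exchange factor (9.42 and 11.4 TPM against 3.87 and 4.0 TPM, log2 fold change 1.21). Rac1 itself stood at 352 and 366 TPM against 322 and 327 TPM and was not called.

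Rbms3, an RNA-binding protein with RRM domains (chromosome 8, 116305227 to 117625730, minus strand), stood at 15.9 and 18.0 TPM against 12.9 and 13.8 TPM. The groups did not overlap, and the nearest libraries were 1.15-fold apart. The log2 fold change was 0.32 (SE 0.14, 95% interval −0.019 to 0.66, limma adjusted p = 0.132). Its level is less certain than that of the others. The deposited coverage of the gene was between 1.33 and 1.60 reads per base, and the ratio of coverage to FPKM was 0.248 against a median of 4.45 over tested genes, lower than in all but 1.13% of them. The annotated span of 1321 kilobases holds several non-coding entries, of which one on the opposite strand, LOC102550774, was listed at 2.82 to 3.39 TPM. Its relative Rbms1 rose from 39.5 and 40.3 TPM to 75.7 and 75.2 TPM (log2 fold change 0.90). Rbms2, at 161 and 139 TPM against 137 and 135 TPM, was not called except without YAP5SA replicate 2 (log2 fold change 0.24).

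**Figure D2:**
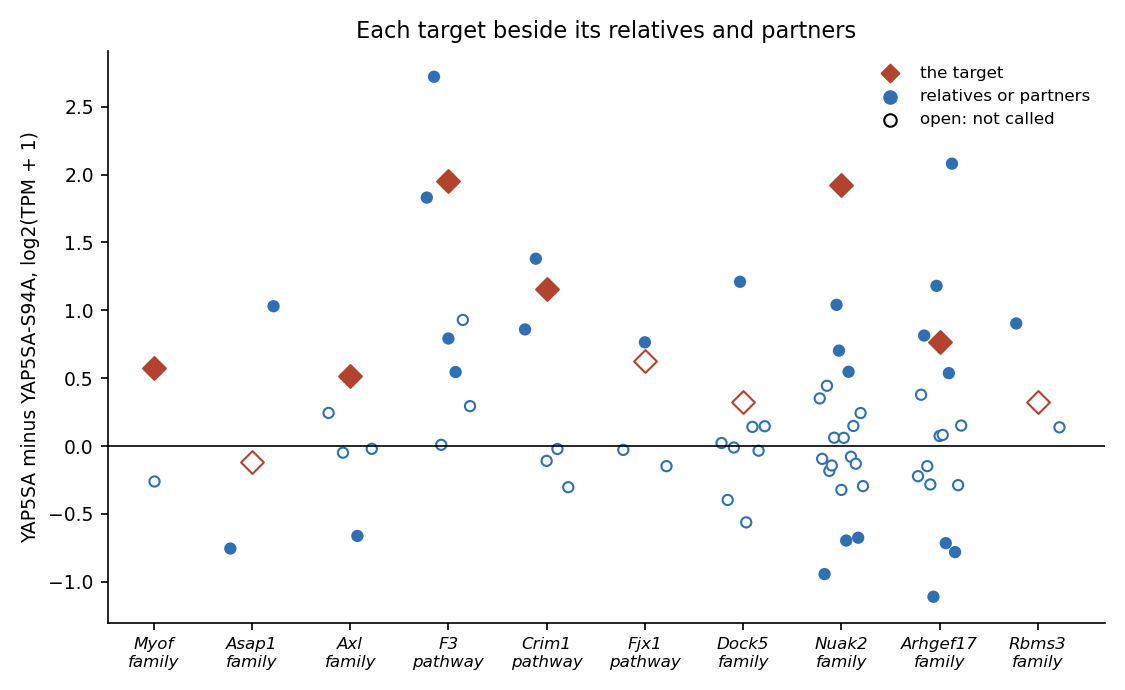
Difference between the forms on the log2(TPM + 1) scale for each of the 10 targets (diamonds) and the tested genes of its family or pathway list (circles), filled where the limma adjusted p was under 0.05. F3 lies with F2r and F2rl1 above 1.5, Nuak2 lies above all its relatives, and Asap1 lies between Asap2 below and Asap3 above.

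For genes other than Rbms3, no annotated overlap with an expressed gene on the opposite strand was found, apart from LOC100911555 within Myof, at 0.035 to 1.04 TPM. The coverage column, divided by the gigabases of each library, gave ratios between the forms close to those of TPM: 4.07 for F3, 4.69 for Nuak2, 2.34 for Crim1 and 0.861 for Asap1. The 10 genes are long as a group, with a median span of 104 kilobases against 21.9 over tested genes, yet F3 and Nuak2 (11.6 and 17.2 kilobases) and Fjx1 (2.10 kilobases) lie under that median.

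**Figure D3:**
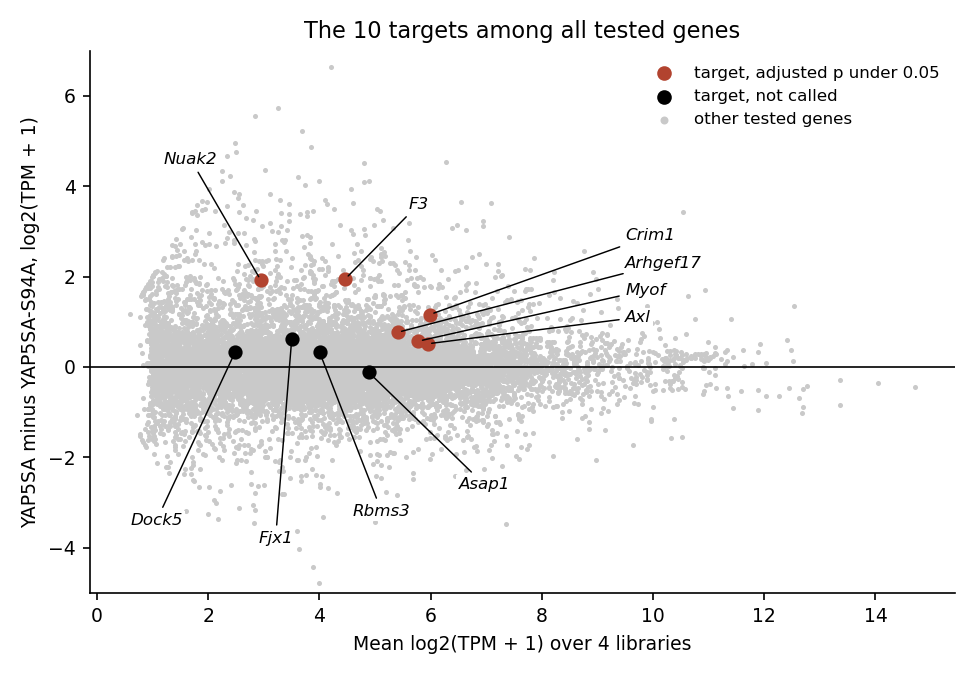
Difference between the forms on the log2(TPM + 1) scale against the mean level over 4 libraries for 13420 tested genes (grey), with the 10 targets marked, red where called. F3 and Nuak2 lie near 2 at a middle and a low level, and the 4 genes not called lie between −0.12 and 0.63.

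The rest of the score had a higher median change. Of its other 12 genes 11 were tested, and 8 were called higher and 1 lower (17.4% and 15.5% over all tested genes). Their median log2 fold change was 1.77 against 0.60 in the 10 targets. Over all 21 tested genes of the score the 10 targets took places 6 (F3), 7 (Nuak2), 9 (Crim1), 11, 12, 13, 14, 16, 17 and 19 (Asap1). The 5 places at the top went to Ccn1, Amotl2, Ankrd1, Tgfb2 and Ccn2, with differences from 3.62 to 1.95, and Lats2 followed Nuak2 with 1.77. Ptpn14 rose by 0.98 and Ccdc80 by 0.46, the latter a call lost without either YAP5SA-S94A library. The difference between the 10 genes and the rest was not tested.

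Genes of the score without a call, or with a fall, were also found outside the 10. The stress gene Gadd45a stood at 184 and 190 TPM against 171 and 174 TPM and was not called (log2 fold change 0.12, limma adjusted p = 0.339). Nt5e, the gene of the ectonucleotidase CD73, stood at 22.2 and 29.7 TPM against 30.7 and 35.9 TPM (limma adjusted p = 0.149), and it was called lower without YAP5SA replicate 2 (log2 fold change −0.56). Igfbp3, which binds insulin-like growth factors, fell from 38.7 and 37.5 TPM to 20.8 and 20.5 TPM (log2 fold change −0.85, limma adjusted p = 0.00173). Foxf2, at no more than 0.429 TPM in any library, did not pass the filter.

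**Figure D4:**
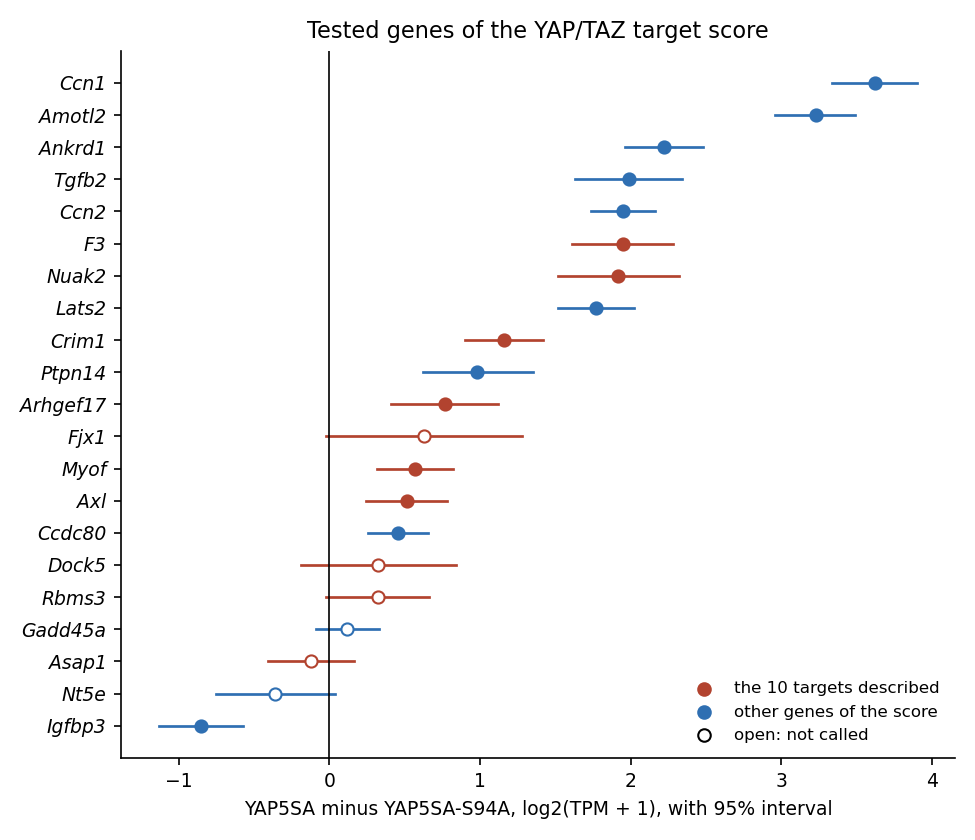
Difference between the forms with its 95% interval for the 21 tested genes of the YAP/TAZ target score, the 10 targets in red and the others in blue, with open points where no call was made. The 6 called targets lie between 0.51 and 1.95, and Asap1, Gadd45a, Dock5, Rbms3, Fjx1 and Nt5e have intervals that include 0.

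A wider list held 37 genes described elsewhere as YAP/TEAD targets, and it too was chosen with earlier results known. Of 36 tested, 28 were called higher and 1 lower (17.4% and 15.5% over all tested genes), with a median of 1.00. The 6 with the smallest p were Emp2 (log2 fold change 2.88), Pmp22 (2.13), Ddah1 (1.72), Cavin2 (1.80), Thbs1 (1.62) and Ajuba (2.31). Those not called with the highest level were Gas6, Tns1 (195 and 183 TPM against 162 and 159 TPM, called higher without YAP5SA replicate 2) and Bicc1 (50.1 and 45.8 TPM against 55.5 and 49.7 TPM). The single gene called lower, Ndrg1, named after its value was seen, fell by 0.63. TEAD genes differed as well. Tead1 rose by 0.94 and Tead4 by 2.54, Tead2 fell by 0.41, and Tead3 was not called (limma adjusted p = 0.0604).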

How the data were processed

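Gene tables of 4 poly(A) RNA-seq libraries, 2 per YAP form, were used. TPM and FPKM values per gene entry were computed by the authors and deposited, and the Coverage column, per the file headers, is a coverage signal per base that is not scaled for depth. Alignment with HISAT2 2.2.1 and assembly with StringTie 2.2.1 after fastp, on the build rn7, are named in the submitters' processing notes. The libraries keep strand per the labels' protocols, and whether counting used it is not given in the sources used here. Entries sharing a name were summed. The aligned bases of a library were read from the largest coverage-to-FPKM ratio among its entries. The log2 of TPM plus a pseudocount of 1 was compared with limma 3.58.1 (R 4.3.3) over the 13420 genes whose mean TPM reached 1. The fit used a trend with level, and had 2 residual and 5.09 prior degrees of freedom. Benjamini-Hochberg adjustment covered every tested gene, and a gene was called where its adjusted p was under 0.05. The method was tested on simulated data. Members and gene lists were chosen with earlier results of these data known. Named are all 10 members, the tested genes of the rest of the score, the 6 called genes of the wider target list with the smallest p and its 3 most abundant genes not called. From each family or pathway list the called genes and the most abundant gene not called are named, and Yap1 and Tead1 to Tead4 are named by rule too. A plan to name the 3 most abundant genes of each cell type marker list was not followed. The markers and any other gene were named after their values were seen. Other pseudocounts, filters, units and scalings, the replicate block and the omission of each library were tried. Promoter windows came from RefSeq (GRCr8). Tables were made with Python 3.11.15 and pandas 2.3.3.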

Additional observations from a re-analysis of the deposited data

How the results depend on the processing

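Of the 139 values of the 10 targets under 14 alternatives, 136 kept their direction and their side of the threshold and 0 changed sign. The exceptions were Axl, not called without YAP5SA-S94A replicate 1 (log2 fold change 0.47), and Fjx1, called higher without YAP5SA replicate 2 (1.07) and with the replicate block (limma adjusted p = 0.0225). With all 4 libraries kept, 6 targets were called higher in every alternative except the replicate block. In those alternatives, 8.66% (no filter) to 19.4% (mean TPM of at least 5) of all tested genes were called higher. With the replicate block 7 targets were called higher, beside 20.3% of all tested genes, and 5319 genes were called in place of 4420. No label says that the replicate numbers pair the samples, and the deviations of same-numbered libraries correlated at 0.101 across genes. Dock5 has no value at a mean TPM of at least 5, which it did not reach. Over all genes, 1299 to 2891 were called lower when 1 library was left out, against 2083. Of the other score genes 1 to 2 were called lower in that case, and of the wider target list 0 to 2. The wider list had 2 called lower with the replicate block and also without mitochondrial genes. Beyond the 10 targets, the alternatives were computed for the genes that the naming rule gives from the score, the wider list and the family and pathway lists. Among these, signs changed for 3, none of them called: F2rl2 (−0.012 with FPKM, −0.077 after quantile normalization, −0.050 without mitochondrial genes, −0.031 to 0.048 with 1 library left out), Dchs1 (−0.070 to 0.013 with 1 library left out) and Bmp7 (−0.22 to 0.0031 likewise). With no filter on low values, Arhgef3, Arhgef28, Bmp2, Procr, Sik1 and Stk11 were no longer called. The cause was not tested. Coverage in YAP5SA-S94A was under 10 reads per base for Nuak2 and Dock5 and under 2 for Rbms3, and how far depth limits these genes was not tested.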
